A study of Mus musculus with 18 samples.

Results

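The nuclear pore, lamina and nuclear transport genes are 39 genes that encode pore proteins, lamins, proteins of the inner nuclear membrane and transport factors. They were listed by gene symbol after Tmpo and Nup205 had been seen at lower levels in DP autonomy libraries, so values from that contrast are given here as a description. All 39 were found among the 22619 genes of the count table, and 38 had enough reads to be tested. Gene expression was measured by RNA sequencing of thymocytes sorted from wild type mouse thymi, each 28 days after transplantation. DN3 thymocytes are the immature stage without CD4 and CD8 at which the T-cell receptor beta gene is rearranged, and DP thymocytes are the later stage that carries both. In turnover a grafted thymus is refilled by progenitors that arrive from outside, and in autonomy its own thymocytes keep it going without them. There were 4 libraries of DN3 turnover, 5 of DN3 autonomy, 4 of DP turnover and 5 of DP autonomy. The sources used here name neither the hosts nor the strain, age or sex of the animals in any group. Nothing in the labels ties libraries of a group to separate animals, and the turnover libraries come in A and B pairs under 2 numbers. The p-values below therefore measure the spread between these libraries, which may in part be technical.

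The nuclear pore complex is the channel through which RNA leaves the nucleus and proteins move in and out of it. Its scaffold is built of an outer Y complex and an inner ring, transmembrane proteins anchor it, unstructured phenylalanine-glycine proteins fill the channel, and filaments and a basket extend into the cytoplasm and the nucleus. Beneath the membrane lies the lamina, a meshwork of lamins tied to chromatin by membrane proteins, and importins and exportins carry cargo through the pores under control of the GTPase Ran. In mitosis the envelope and the pores come apart and are rebuilt, and cells that divide make new pores in interphase as the nucleus grows.

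Total counts ran from 12260295 to 14846126 in DN3 turnover, from 7426834 to 21808512 in DN3 autonomy, from 6329039 to 24191044 in DP turnover and from 5032273 to 20076446 in DP autonomy. Il2ra and Cd4 fitted the sorted types, in CPM (reads of a gene relative to the TMM-scaled library total). Il2ra lay at 256 to 635 CPM in DN3 and at 1.24 to 41.3 CPM in DP libraries. Cd4 lay at 639.6 to 897 CPM in DP libraries. Of the 8 DN3 markers listed, edgeR called 5 lower and 2 higher in DP than in DN3, in turnover as in autonomy (62.5% and 25%). Of all genes tested, 19.1% were lower and 15.8% higher in DP within turnover, and 25.2% and 23.7% within autonomy. The DN3 turnover library RP1141B stood apart, with Cd4 at 135 CPM and Cd8a at 386 CPM against at most 1.96 and 7.34 CPM in the other 3. Cd8a also lay at 38.9 to 72.3 CPM in DN3 autonomy. Of the 8 DP markers listed, 7 had a log2 change under 0 in DN3 autonomy against DN3 turnover, with a median of -0.79. By edgeR, 3 of them were called lower (37.5%, beside 8.35% of all genes tested) and none higher. Marker lists of other cell types also differed between the DN3 groups, and their values are given with the cell-cycle genes below. The part of the Cd4 and Cd8a transcripts in the results was not tested; counts of members called without RP1141B are given with the comparisons of DN3 turnover.

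Levels differed widely among the members. Divided by exon length, Ran, the GTPase that gives transport its direction, had the highest level of all members in DN3 turnover at 413 CPM per kilobase. Banf1, which encodes a small protein that bridges DNA and inner membrane proteins, came next at 169.8 CPM per kilobase. In DP turnover the order at the top changed, with Lbr, the lamin B receptor, at 177 CPM per kilobase, Ran at 156 and Banf1 at 114. Tmpo, which encodes the lamina-associated polypeptides LAP2, ranked 12 of 39 in DP turnover at 40.7 CPM per kilobase and 22 in DP autonomy at 12.7. Nup205, a large scaffold protein of the inner ring, ranked 30 in DP turnover at 7.21 CPM per kilobase and 35 in DP autonomy at 2.07. Lmna, the gene of the A-type lamins, was close to silent, with group means of 0.106 to 0.626 CPM per kilobase, whereas the B-type lamin Lmnb1 lay between 64.7 and 123. Nup43, a Y complex gene, had 1 read in each of 3 libraries and none in the other libraries, so it entered no test.

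**Figure D1:**
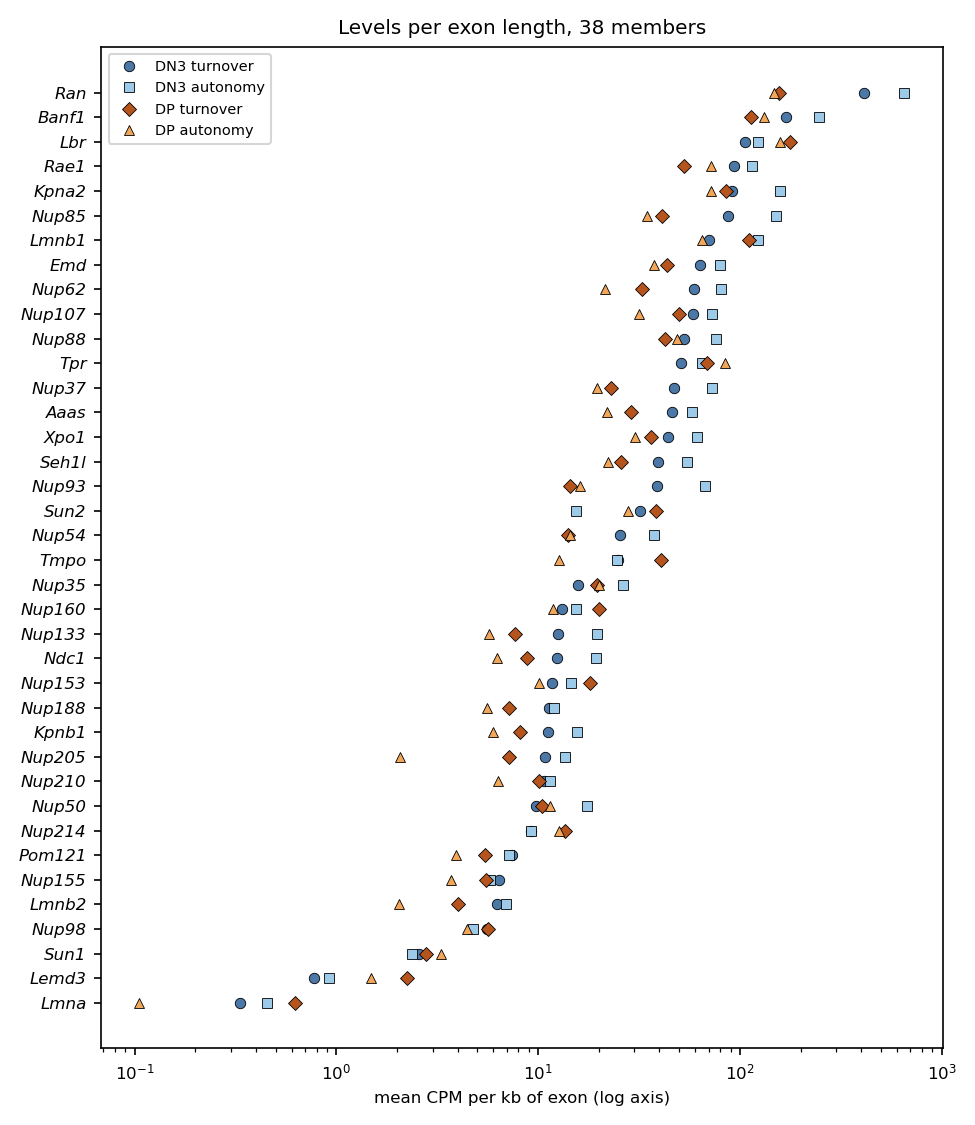
Mean level of 38 members in the 4 groups, in CPM per kilobase of exon on a log axis, ordered by DN3 turnover; each symbol is a group mean over 4 or 5 libraries. Ran and Banf1 lead in DN3, Lbr leads in DP, and Lmna lies at the bottom in every group; Nup43 is left out.

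Promoter windows from RefSeq on GRCm38.p6 were available for 34 of the 39 members. Those of Tmpo and Nup205, which gave rise to the list, and of the members with the largest called changes in DN3 are shown, as the 250 bases upstream of the RefSeq start, 5′ to 3′ on the gene's strand; Lmnb1 and Nup85, whose changes lie among these, are named only. Capitals mark the CCAAT box on either strand (CCAAT or ATTGG) and the cell-cycle homology region on either strand (TTTGAA or TTCAAA).
Tmpo, chr10:91171620-91171869, minus strand: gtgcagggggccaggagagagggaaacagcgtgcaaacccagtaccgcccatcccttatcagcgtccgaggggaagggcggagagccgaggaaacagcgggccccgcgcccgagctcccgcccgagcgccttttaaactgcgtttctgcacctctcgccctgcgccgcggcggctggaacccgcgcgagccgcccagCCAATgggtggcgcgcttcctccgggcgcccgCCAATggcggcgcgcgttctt
Nup205, chr6:35177366-35177615, plus strand: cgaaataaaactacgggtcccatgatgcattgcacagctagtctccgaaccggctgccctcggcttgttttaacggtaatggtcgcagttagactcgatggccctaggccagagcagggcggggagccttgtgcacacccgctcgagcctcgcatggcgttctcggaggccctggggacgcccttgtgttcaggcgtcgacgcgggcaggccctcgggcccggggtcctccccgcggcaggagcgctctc
Nup50, chr15:84923178-84923427, plus strand: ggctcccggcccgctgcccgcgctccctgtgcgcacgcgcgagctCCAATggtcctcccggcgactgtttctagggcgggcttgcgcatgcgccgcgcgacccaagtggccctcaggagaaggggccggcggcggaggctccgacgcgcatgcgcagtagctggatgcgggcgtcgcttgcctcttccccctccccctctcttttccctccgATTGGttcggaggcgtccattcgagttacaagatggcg
Kpna2, chr11:106999526-106999775, minus strand: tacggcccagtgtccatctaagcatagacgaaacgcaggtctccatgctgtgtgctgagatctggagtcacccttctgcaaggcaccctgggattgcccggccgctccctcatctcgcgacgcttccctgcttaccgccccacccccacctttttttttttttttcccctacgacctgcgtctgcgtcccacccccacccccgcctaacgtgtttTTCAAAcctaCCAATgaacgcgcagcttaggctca
Nup93, chr8:94214314-94214563, plus strand: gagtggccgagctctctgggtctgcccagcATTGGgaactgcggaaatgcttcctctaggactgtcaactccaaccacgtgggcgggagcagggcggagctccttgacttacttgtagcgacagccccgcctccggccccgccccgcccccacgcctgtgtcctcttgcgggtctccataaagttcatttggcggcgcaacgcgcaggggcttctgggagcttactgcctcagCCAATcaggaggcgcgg
GENCODE places the starts of the 5 protein-coding Tmpo transcripts 37 to 67 bases downstream of the RefSeq start, while a non-coding Tmpo transcript starts 9696 bases upstream of it and sets the outer end of the gene, so the window lies within the annotated gene. RefSeq holds 1 more window each for Tmpo and Nup93, not shown. The outermost protein-coding Nup205 transcript in GENCODE starts 195 bases upstream of the RefSeq start, within the window shown. The Tmpo window holds a pair of CCAAT boxes within 53 bases of the RefSeq start, Kpna2 has a CCAAT box next to a TTCAAA, and the Nup205 window holds neither motif. Over the whole 300-base windows, which reach 50 bases past the start, CCAAT occurred in 19 of 34 members (55.9%) and in 37.4% of 32851 windows. Each member enters with 1 window, the one nearest the GENCODE start of the gene, whereas the 32851 include every window of a gene. TTTGAA occurred in 8 of 34 members (23.5%) and in 17.9% of windows. The E2F motif TTTCCCGC was found in 2 members, Banf1 and Nup210, and in 1.07% of windows, and TTTGGCGC in none of the members and in 0.514% of windows. Both strands were searched, the motifs do not overlap each other in the windows shown, and a match describes letters only.

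The first comparison set autonomy against turnover in DN3 cells, a contrast that shares no library with the one that led to the list. Of 38 members tested, 12 rose in autonomy, none fell and 26 were not called, that is 31.6% called higher, while 6.53% of 10766 genes were called higher and 8.35% lower in the same fit. The median log2 change of the 38 members was 0.34, and that of all genes tested was -0.05. In 11 members every autonomy library lay above every turnover library, a pattern seen in 8.29% of all genes. The rises were modest, between 1.44-fold for Nup88 and 1.78-fold for Nup50, and came from pore proteins, a lamin and transport factors. None of the 7 inner membrane and chromatin tether genes was called in this fit. That list is too short to set its count against the 6.53% of all genes called higher. In bulk libraries, more cells of a kind and more RNA per cell cannot be told apart.

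**Figure D2:**
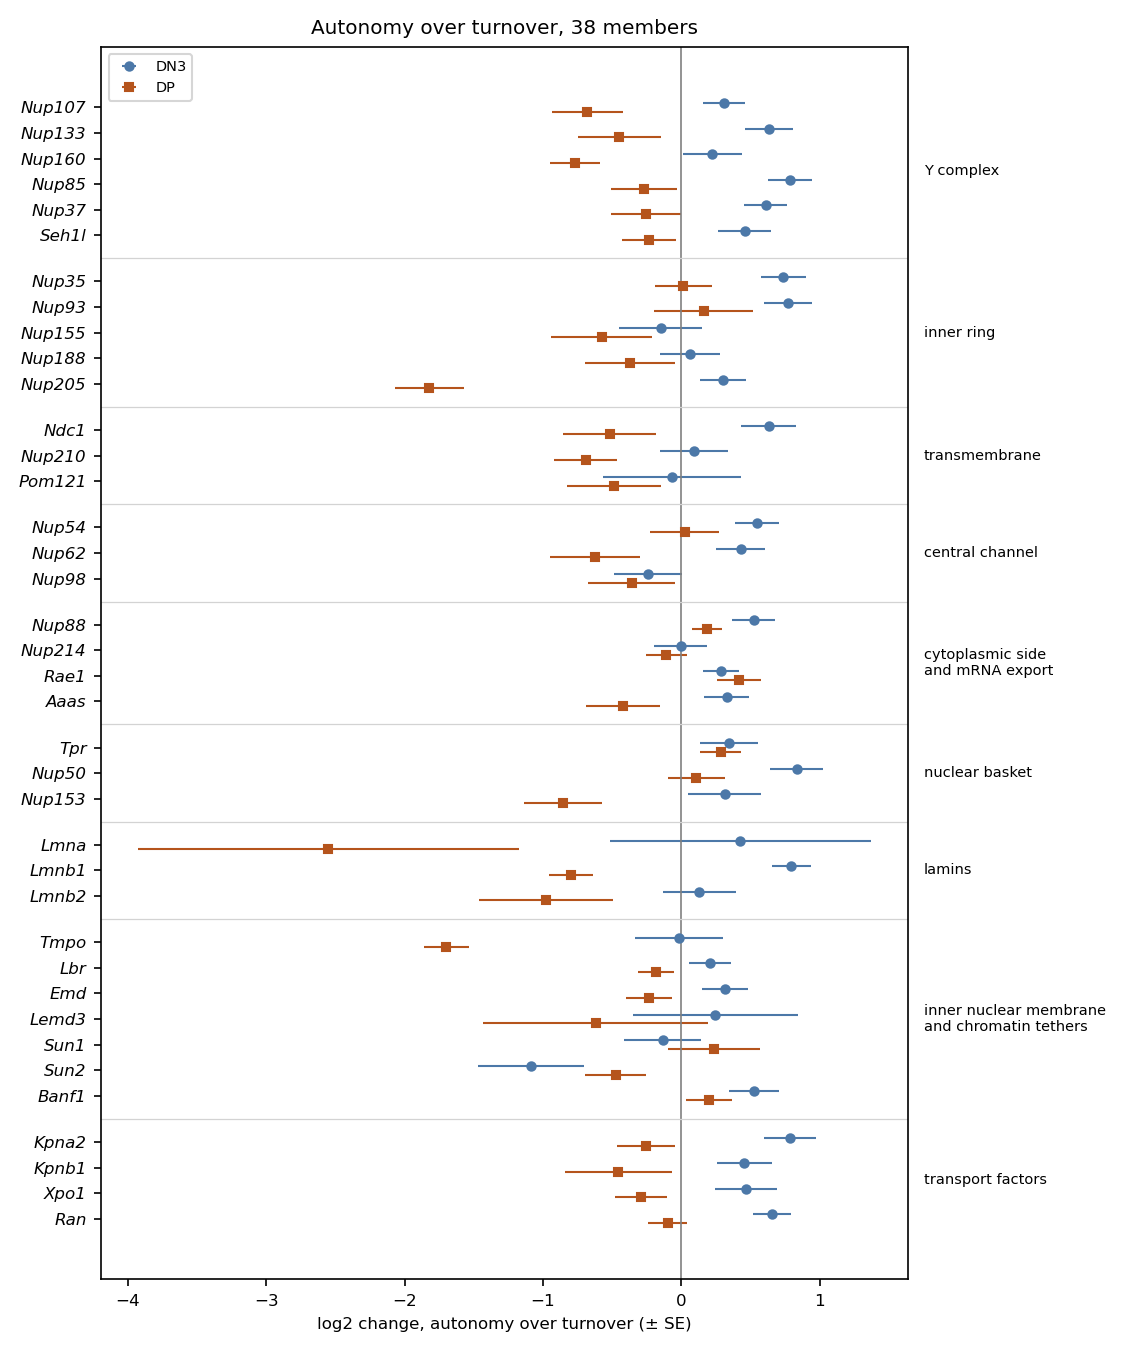
Log2 change of 38 members, autonomy over turnover, with its standard error from the edgeR fit, in DN3 (circles) and DP (squares), grouped by role. In DN3 most points lie right of 0 with a median of 0.34, and in DP most lie left of 0 with a median of -0.37; the DP values are those that chose the list and carry no test.

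Y complex genes, which build the outer rings of the pore, gave 3 calls among 6 tested. Here and below, single values follow the order RP1140A, RP1140B, RP1141A and RP1141B in turnover, RP1133, RP1134, RP1135, RP1137 and RP1138 in DN3 autonomy, and RP1133, RP1135, RP1136, RP1137 and RP1138 in DP autonomy. Nup85 lay at 282, 246, 345 and 304 CPM in the DN3 turnover libraries and at 472, 588, 403, 524 and 564 CPM in autonomy. No library of one condition reached the other, and Nup85 rose by 0.78 ± 0.16 (log2 ± SE), with an adjusted p of 0.00746 by edgeR's quasi-likelihood test. Nup133, which helps tether the Y complex to curved membrane, went from 92.1, 103, 91.2 and 66.3 CPM to 167, 104, 138, 150.4 and 131 CPM. Its conditions met without overlap, at 103 and 104 CPM, for a log2 change of 0.64 ± 0.17 and an edgeR adjusted p of 0.0278. Nup37 was measured at 161, 136, 179.8 and 153 CPM in turnover and at 197, 275, 222, 240.3 and 275 CPM in autonomy. All 5 autonomy libraries were higher, and the log2 change was 0.61 ± 0.16 (edgeR adjusted p = 0.0207). Nup107, Nup160 and Seh1l had log2 changes of 0.31 ± 0.15, 0.22 ± 0.21 and 0.46 ± 0.19 without a call.

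In the inner ring, which lines the membrane side of the channel, 2 of 5 genes rose. Nup93, the linker that holds the inner ring together, stood at 174, 137, 187 and 164 CPM in turnover and at 300.1, 267, 198, 327 and 331 CPM in autonomy. The groups did not overlap, and its log2 change was 0.77 ± 0.17 with an edgeR adjusted p of 0.0111. Nup35, a membrane-binding inner ring protein, rose from 52.2, 46.7, 62.5 and 50.3 CPM to 92.1, 100.2, 71.7, 95.2 and 84.97 CPM. Again no library crossed over, for a log2 change of 0.74 ± 0.16 (edgeR adjusted p = 0.0113). Nup205 itself was at 110.1, 107, 99.5 and 88.9 CPM in turnover and at 146, 109, 98.00, 120.2 and 157 CPM in autonomy. These groups overlapped, and with a log2 change of 0.30 ± 0.16 and an edgeR adjusted p of 0.229 Nup205 was not called in DN3. Nup155 and Nup188 had log2 changes of -0.15 ± 0.30 and 0.06 ± 0.22.

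Among the transmembrane anchors, Ndc1 was called at the edge of the threshold. Its libraries lay at 67.8, 75.8, 58.7 and 43.3 CPM in turnover and at 111, 75.7, 83.8, 120.2 and 88.7 CPM in autonomy, with the lowest autonomy library just under the highest turnover library. The log2 change was 0.63 ± 0.20 and the edgeR adjusted p 0.0494. Nup210, a large membrane glycoprotein of the pore, had a log2 change of 0.09 ± 0.25 and Pom121 of -0.07 ± 0.50, with turnover libraries of Pom121 spread from 9.12 to 91.4 CPM. Of the 3 channel genes, Nup54 lay at 97.4, 88.8, 77.8 and 75.4 CPM in turnover and at 108, 123, 119, 119.5 and 155 CPM in autonomy. No values crossed between the groups, for a log2 change of 0.55 ± 0.16 (edgeR adjusted p = 0.0338). Nup62, its partner in the channel, had a log2 change of 0.43 ± 0.17 and Nup98, which forms much of the permeability barrier, of -0.24 ± 0.24, and neither was called.

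On the cytoplasmic side 1 of 4 genes was called. Nup88, which anchors the cytoplasmic filament protein Nup214, lay at 447, 338, 471 and 459 CPM in turnover and at 735, 590.3, 488, 671 and 621 CPM in autonomy. The groups were separate, with a log2 change of 0.52 ± 0.16 and an edgeR adjusted p of 0.0409. Nup214 had a log2 change of -0.0046 ± 0.19 and Aaas, which encodes the pore protein aladin, of 0.33 ± 0.16. Rae1, an mRNA export factor, had one of 0.29 ± 0.13 without overlap of libraries, and none of the 3 was called. In the basket, Nup50, which speeds the release of importin cargo, was at 44.1, 39.3, 46.8 and 60.6 CPM in turnover and at 71.8, 105, 79.7, 75.4 and 95.6 CPM in autonomy. Every autonomy library was higher, and this was the largest called change of the list, 0.83 ± 0.19 (edgeR adjusted p = 0.0122). Nup153 lay at 60.4, 131, 67.5 and 70.1 CPM in turnover and at 80.98, 149, 83.3, 83.5 and 116 CPM in autonomy. The turnover library RP1140B reached into the autonomy range, and the log2 change of 0.31 ± 0.26 was not called, nor was that of Tpr, 0.35 ± 0.21.

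Lmnb1, a B-type lamin present in nearly all cell types, had the smallest p of the members. It lay at 189.9, 249, 201 and 194 CPM in DN3 turnover and at 385, 341, 319, 409 and 367 CPM in DN3 autonomy. The groups were well apart, for a log2 change of 0.80 ± 0.14 and an edgeR adjusted p of 0.0033. The other B-type lamin, Lmnb2, had a mean of 6.26 CPM per kilobase of exon in DN3 turnover against 70.3 for Lmnb1. It lay at 27.9, 35.8, 24.8 and 18.8 CPM in turnover and 34.7, 17.9, 40.6, 27.1 and 27.97 CPM in autonomy. Its groups overlapped, with a log2 change of 0.13 ± 0.26 and no call. Lmna ranged from 0 to 4.79 CPM over the 9 DN3 libraries, too few reads to show a difference at this depth.

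Among the inner membrane and tether genes, the widest difference was a lower level. Sun2, whose protein links the lamina to the cytoskeleton across the envelope, lay at 219, 267, 119.7 and 91.96 CPM in turnover and at 133, 34.9, 125, 62.5 and 60.8 CPM in autonomy. The groups overlapped, and the log2 change of -1.08 ± 0.38 had an edgeR adjusted p of 0.0723. Banf1 had a log2 change of 0.52 ± 0.18 and an edgeR adjusted p of 0.0656. In the authors' deposited DESeq2 table Sun2 had a log2 fold change of -1.08 with an adjusted p of 0.022. Banf1 had one of 0.56 with an adjusted p of 0.0284 by DESeq2. At the same threshold 13 members were higher and 1 lower there, beside 1106 higher and 1271 lower of 12337 genes with an adjusted p. Tmpo was at 195, 541, 225 and 131 CPM in turnover and at 239, 291, 323, 274 and 229.7 CPM in autonomy. One turnover library, RP1140B, lay above all others, and the log2 change of -0.02 ± 0.32 (edgeR adjusted p = 0.98) ranged from -0.24 to 0.55 as single libraries were left out. Emd, the emerin gene, Lbr, Lemd3 and Sun1 had log2 changes of 0.32 ± 0.16, 0.21 ± 0.15, 0.25 ± 0.59 and -0.13 ± 0.28.

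Transport factors gave 2 calls of 4. Ran lay at 1103, 995, 1199.8 and 1070.3 CPM in turnover and at 1767, 1646, 1458, 1797 and 1985 CPM in autonomy. The groups did not overlap, and its log2 change was 0.65 ± 0.14 with an edgeR adjusted p of 0.00841. Kpna2, an importin alpha that carries classical import signals, was at 225, 201, 355 and 265 CPM in turnover and at 446, 503, 338, 498 and 486 CPM in autonomy. The highest turnover library passed the lowest autonomy library, yet the change of 0.79 ± 0.19 was called (edgeR adjusted p = 0.0159). Kpnb1, the importin beta that partners it, and Xpo1, the main protein export receptor, had log2 changes of 0.46 ± 0.20 and 0.47 ± 0.22 and were not called.

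Calls of Nup85, Nup35, Nup93, Nup50, Lmnb1 and Ran held in each of the 9 fits that left out 1 DN3 library, and the other 6 were lost in at least 1. Without the turnover library RP1140A 6 members were called higher, without RP1141B, the library with DP transcripts, 8, in a model of all 18 libraries 7, and with the A and B libraries of each turnover number summed to 1 library, which leaves 2 turnover samples, only Lmnb1. The counts of all genes called in these fits are not given. A shift of the members therefore cannot be told from a shift in all calls.

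**Figure D3:**
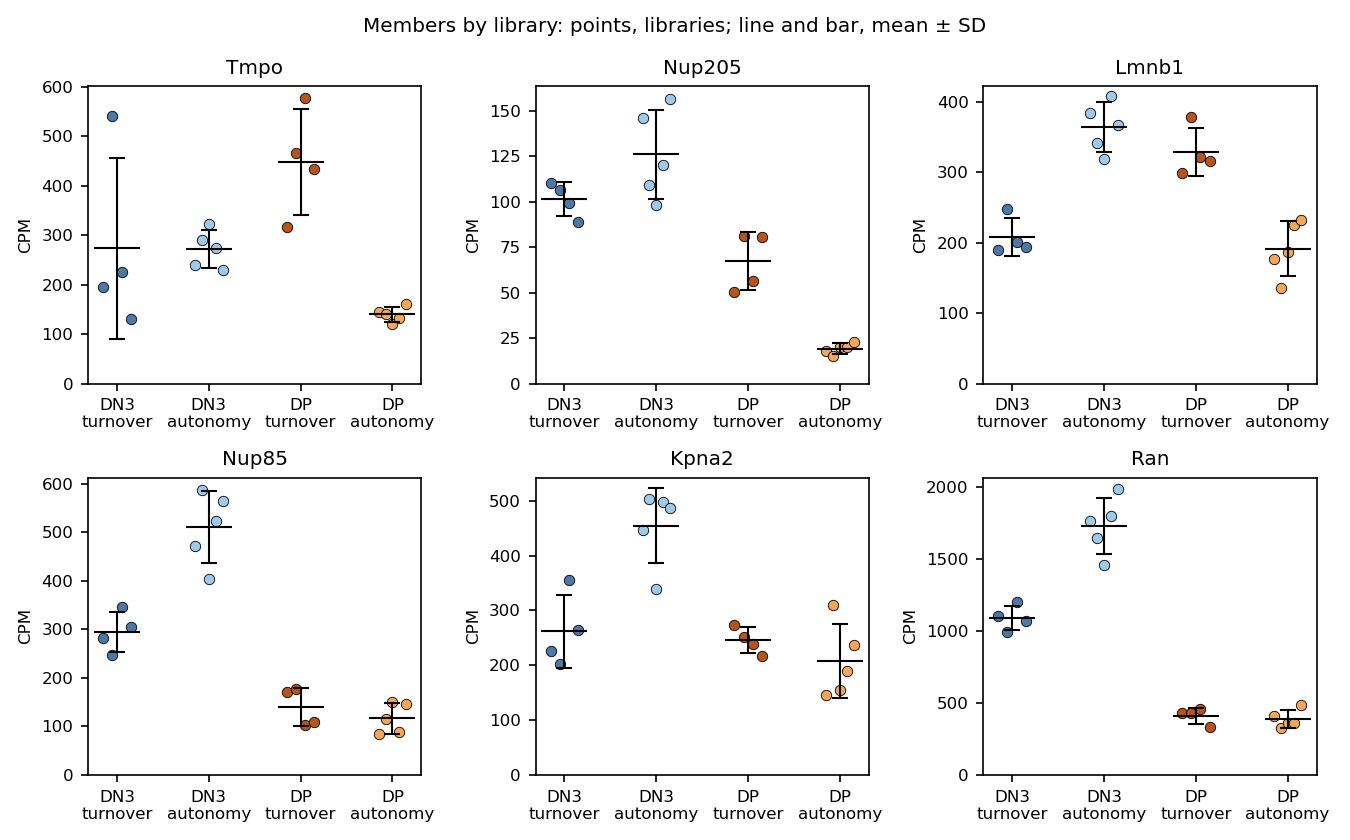
Levels in CPM of 6 members in each of the 18 libraries, with the mean and SD of each group of 4 or 5. Lmnb1, Nup85, Kpna2 and Ran have higher means in DN3 autonomy than in DN3 turnover, and Tmpo, Nup205 and Lmnb1 have lower means in DP autonomy than in DP turnover.

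The list came from the same contrast in DP cells, where the values are a description. Tmpo (ENSMUSG00000019961) lies on the minus strand at chr10:91147571-91181315 of GRCm38 and Nup205 (ENSMUSG00000038759) on the plus strand at chr6:35177421-35247596. Tmpo was found at 316, 466, 577 and 433 CPM in the DP turnover libraries and at 144, 140.0, 120.1, 133 and 162 CPM in autonomy. The groups were far apart, 3.24-fold lower in autonomy (log2 change -1.70 ± 0.17). Nup205 was measured at 50.5, 81.00, 56.4 and 80.5 CPM in turnover and at 18.1, 14.9, 20.1, 20.2 and 22.96 CPM in autonomy. Its highest autonomy library was under its lowest turnover library, a 3.53-fold lower level (log2 change -1.82 ± 0.25). Lmnb1 stood at 299, 379, 322 and 316 CPM in turnover and at 177, 136, 187, 225 and 233 CPM in autonomy, again with no overlap and a log2 change of -0.80 ± 0.16. These 3 of 38 members passed the threshold, all lower, beside 0.861% of 10339 genes called lower and 0.861% called higher; since this contrast gave rise to the list, nothing is read from that count. In 4 members, these 3 and Nup160, every autonomy library lay under every turnover library, beside 3.87% of all genes.

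Beyond these, the members with the largest log2 values in DP were lamins and pore genes. Nup160, of the Y complex, was at 164, 225, 144 and 173 CPM in turnover and at 116, 87.8, 103, 88.7 and 127 CPM in autonomy, without overlap, for a log2 change of -0.77 ± 0.18. Nup153, in the basket, lay at 161, 120.4, 149 and 79.4 CPM and 75.6, 100.2, 79.7, 64.7 and 34.96 CPM, a log2 change of -0.86 ± 0.28 with overlapping libraries. Nup210 was at 82.8, 128, 132 and 82.5 CPM in turnover and 84.99, 76.8, 48.6, 56.3 and 66.02 CPM in autonomy, where the ranges met in 1 library (log2 change -0.69 ± 0.23). The remaining lamins were low in both conditions: Lmnb2 lay at 16.6, 17.5, 23.3 and 11.1 CPM in turnover and 4.90, 8.68, 3.74, 14.2 and 12.3 CPM in autonomy, with a log2 change of -0.98 ± 0.48. Lmna had 2.88, 3.32, 6.54 and 1.87 CPM in turnover and 0.188, 0, 2.60, 0 and 0.3 CPM in autonomy, so its log2 change of -2.55 ± 1.38 rests on few reads. The authors' deposited table puts 6 members lower at the same threshold, Tmpo, Nup205, Lmnb1, Nup160, Nup210 and Nup153, and none higher. Among 11138 genes with an adjusted p there, 416 were lower and 438 higher. Nothing is read from the count of members, as this contrast led to the list.

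Not all members were lower in DP autonomy. Of 38, 29 had a log2 change under 0 and 9 above it, with a median of -0.37 against -0.02 over all genes tested. The highest values were those of Rae1 at 0.42 ± 0.16, Tpr, the main strand of the basket, at 0.29 ± 0.15, Sun1, an inner membrane protein that links to the cytoskeleton, at 0.24 ± 0.33, Banf1 at 0.20 ± 0.17 and Nup88 at 0.18 ± 0.11, and none was called. On the cytoplasmic side Aaas and Nup214 had -0.42 ± 0.27 and -0.11 ± 0.15. Nup88 was the only member whose autonomy libraries all lay above those of turnover, though barely, at 365, 421, 405, 384 and 409 CPM against 364, 340.3, 315 and 361 CPM, a pattern held by 4.25% of all genes. Within the inner ring, Nup205 had a log2 change of -1.82 ± 0.25, whereas Nup35 and Nup93 had 0.02 ± 0.21 and 0.16 ± 0.36 and Nup155 and Nup188 had -0.58 ± 0.36 and -0.37 ± 0.33. Within the tethers, Tmpo at -1.70 ± 0.17 stood beside Lbr at -0.18 ± 0.13 and Emd at -0.23 ± 0.17. The members not named in the description of DP had log2 changes between -0.68 ± 0.26 for Nup107 and 0.11 ± 0.21 for Nup50. Counts are summed over the transcripts of a gene, so the isoforms of LAP2 were not told apart.

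Lmnb1 was the only member with every DN3 library higher and every DP library lower in autonomy than in turnover. Its group means were 208 ± 27.3 CPM in DN3 turnover (SD, n = 4), 364 ± 35.3 in DN3 autonomy (n = 5), 329 ± 34.5 in DP turnover (n = 4) and 192 ± 39.1 in DP autonomy (n = 5). In a model of all 18 libraries, the autonomy effect in DP minus that in DN3 was -1.59 ± 0.21 on the log2 scale for Lmnb1, -2.12 ± 0.27 for Nup205 and -1.67 ± 0.40 for Tmpo. Over 38 members the median of this difference was -0.75, with 35 members under 0. Over 11521 genes it was 0.06, with 5446 under 0. The difference contains the contrast that led to the list and so carries no test.

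DP cells were then set against DN3 cells within each condition, for the 36 tested members other than Tmpo and Nup205. In turnover 4 members were called higher in DP and 12 lower, that is 11.1% and 33.3%, beside 15.8% and 19.1% of 11521 genes. In autonomy 3 were called higher and 23 lower, that is 8.33% and 63.9%, beside 23.7% and 25.2% of all genes. The median log2 difference of these members was -0.29 in turnover and -0.97 in autonomy, and that of all genes -0.039 and -0.003. The comparisons set different libraries against each other, but both come from the model of all 18 libraries, which share an estimate of the spread. Their DP libraries, of turnover as well as of autonomy, are those of the contrast that led to the list.

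**Figure D4:**
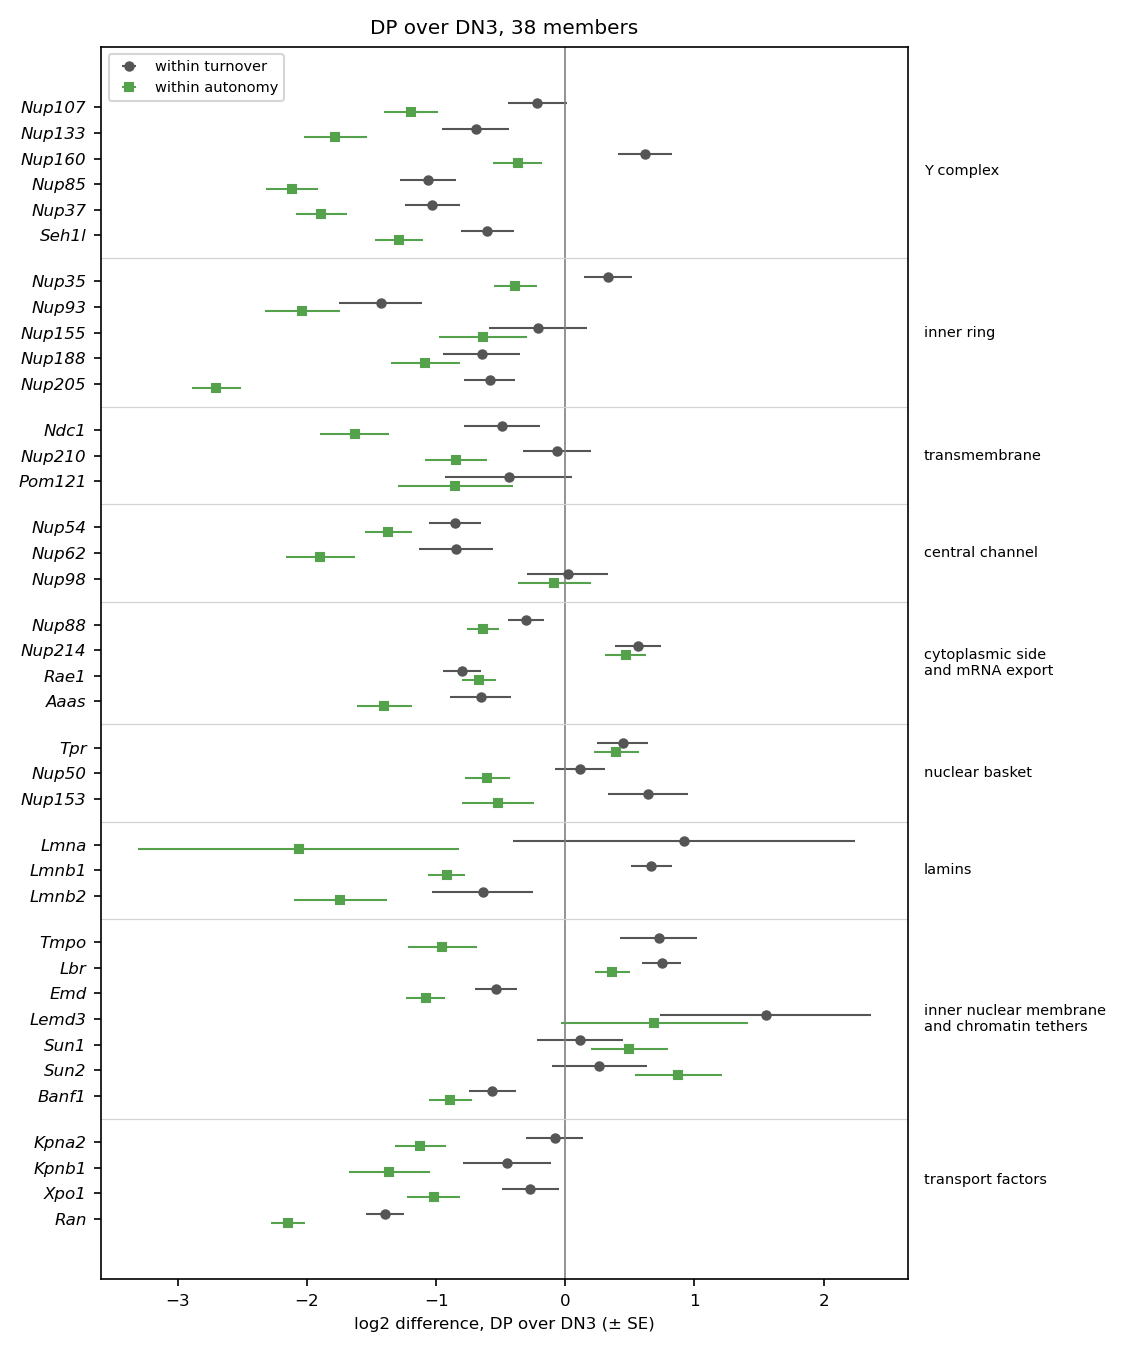
Log2 difference of 38 members, DP over DN3, with its standard error from the edgeR model of 18 libraries, within turnover (circles) and within autonomy (squares). Ran, Nup85, Nup37 and Nup93 lie left of -1 in both conditions and Lbr and Nup214 right of 0 in both; Tmpo and Nup205 are drawn without a test.

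Ran had the largest stage differences among the transport factors. Its DP libraries lay at 429, 429.9, 459 and 332 CPM in turnover and at 409, 327, 364, 358 and 488 CPM in autonomy, under every DN3 library given above. The log2 difference was -1.40 ± 0.14 in turnover (edgeR adjusted p = 5.68e-07) and -2.14 ± 0.13 in autonomy (edgeR adjusted p = 2.78e-10). Kpna2, Kpnb1 and Xpo1 were called lower in DP within autonomy, with log2 differences of -1.12 ± 0.20, -1.36 ± 0.31 and -1.02 ± 0.20. Within turnover they had -0.08 ± 0.22, -0.45 ± 0.34 and -0.27 ± 0.22 and were not called.

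Scaffold genes of the pore followed the same direction with exceptions. Nup85 was at 170.1, 177, 102 and 110.2 CPM in DP turnover and at 83.5, 116, 151, 88.2 and 146 CPM in DP autonomy. Both ranges lay under those of DN3, with log2 differences of -1.07 ± 0.22 (edgeR adjusted p = 0.000775) and -2.12 ± 0.20 (edgeR adjusted p = 4.3e-08). Nup93 was at 72.2, 23.4, 90.6 and 57.8 CPM and 73.1, 33.1, 70.2, 91.8 and 76.8 CPM in the DP groups, again under DN3, with log2 differences of -1.43 ± 0.32 and -2.04 ± 0.29 (edgeR adjusted p = 0.00174 and 8.8e-06). Nup37 had log2 differences of -1.03 ± 0.21 and -1.89 ± 0.20, and Nup54, in the channel, -0.85 ± 0.20 and -1.37 ± 0.18, all called. Nup160 was the Y complex gene on the other side in turnover, at 0.62 ± 0.21 (edgeR adjusted p = 0.0286), while in autonomy its -0.37 ± 0.19 was not called. The other pore genes had log2 differences from -0.85 ± 0.29 for Nup62 to 0.64 ± 0.31 for Nup153 in turnover and from -1.90 ± 0.27 for Nup62 to 0.40 ± 0.18 for Tpr in autonomy, Nup214 apart.

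Higher levels in DP included those of lamina genes. Lbr was at 514, 459.7, 493 and 558 CPM in DN3 turnover and 699.6, 853, 965 and 859 CPM in DP turnover. Every DP library was higher, with a log2 difference of 0.75 ± 0.15 and an edgeR adjusted p of 0.000752. In autonomy Lbr differed by 0.36 ± 0.13 (edgeR adjusted p = 0.0303), with overlapping libraries. Lmnb1 was called higher in DP within turnover, at 0.67 ± 0.16 (edgeR adjusted p = 0.00294), and lower within autonomy, at -0.92 ± 0.14 (edgeR adjusted p = 2.48e-05). Nup214, in the cytoplasmic filaments, was called higher in both conditions, at 0.57 ± 0.18 and 0.47 ± 0.16, and Sun2 in autonomy, at 0.88 ± 0.33. Emd and Banf1 were called lower in DP in both conditions, at -0.54 ± 0.16 and -0.56 ± 0.18 in turnover and -1.08 ± 0.15 and -0.89 ± 0.16 in autonomy, and Lmnb2 in autonomy, at -1.74 ± 0.36. Lmna, Lemd3 and Sun1 were not called in either. Tmpo, without a test, differed by 0.72 ± 0.30 in turnover and by -0.95 ± 0.27 in autonomy, and Nup205 by -0.58 ± 0.20 and -2.70 ± 0.19.

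All 23 lower calls within autonomy held when any 1 of the 18 libraries was left out, whereas each of the 3 higher calls there was lost in at least 1 such fit. Within turnover 2 of 4 higher calls, Lmnb1 and Lbr, and 6 of 12 lower calls, Nup85, Nup37, Nup93, Nup54, Rae1 and Ran, held in every such fit. Without DN3 turnover RP1141B, the library with DP transcripts, 3 were higher and 8 lower in turnover. The turnover counts of 4 and 12 became 2 and 7 without DN3 turnover RP1141A, 4 and 6 without DP turnover RP1141B, and 2 and 5 with A and B libraries summed. In autonomy 1 member was called higher without DN3 autonomy RP1135 and 1 without DP autonomy RP1137. Here too the counts of all genes called are not given, so a shift in all calls cannot be told apart.

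Other genes of the same pathways were measured beside the members. Of 55 further pore, envelope and transport genes tested, 7 rose in DN3 autonomy and none fell (12.7%, beside 6.53% of all genes called higher). Those with the largest log2 change were Rangap1, which activates the GTPase of Ran, at 0.999 ± 0.17, Ddx19a, an mRNA export helicase, at 0.91 ± 0.26, and Nrm, the inner membrane protein nurim, at 0.82 ± 0.18. In DP autonomy 2 were called lower and none higher (3.64% lower, beside 0.861% of all genes), Xpo6, an exportin for actin, at -1.19 ± 0.22 and Ipo7, an importin, at -1.04 ± 0.24. Between the stages, 8 were higher and 8 lower in DP within turnover, 14.5% each way beside 15.8% and 19.1% of all genes, so no larger a share than among all genes. Within autonomy 8 were higher and 22 lower, 14.5% and 40% beside 23.7% and 25.2% of all genes. The transport genes Rangrf and Ipo4 were lowest in DP, at -4.54 ± 0.54 and -3.46 ± 0.37 in turnover and at -4.02 ± 0.47 and -3.18 ± 0.32 in autonomy. Syne1, which encodes nesprin of the outer membrane, was highest in DP, at 2.35 ± 0.43 and 2.57 ± 0.39.

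Cell-cycle genes were measured as well. Of 35 such genes, 30 rose and none fell in DN3 autonomy (85.7% higher, beside 6.53% of all genes). In DP autonomy 10 were called lower and none higher (28.6% lower, beside 0.861% of all genes). Between the stages, 7 were higher and 14 lower in DP within turnover, 20% and 40% beside 15.8% and 19.1% of all genes. Within autonomy 34 were lower in DP and none higher, 97.1% lower beside 25.2% of all genes. Their summed level ran from 10981 to 12473 CPM in DN3 turnover, from 16134 to 20957 CPM in DN3 autonomy, from 8519 to 11563 CPM in DP turnover and from 4681 to 8041 CPM in DP autonomy. The summed level of the 39 members, Tmpo and Nup205 included, ran from 6564 to 7242, 8167 to 10289, 5792 to 6671 and 4885 to 5543 CPM in the same order. Mki67, a marker of dividing cells, had log2 changes of 0.86 ± 0.24 in DN3 and -1.30 ± 0.26 in DP, and Mcm5, of the replicative helicase, 0.90 ± 0.14 and -0.19 ± 0.23. The part of the cell cycle in the values of the members was not tested.

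Markers of other cell types differed between the DN3 groups too, in most lists through 1 gene. Summed B cell markers lay at 52.3 to 91.7 CPM in DN3 turnover and 13.5 to 42.4 CPM in DN3 autonomy, nearly all of it Cd79b, which fell by 1.48 ± 0.32 on the log2 scale (edgeR adjusted p = 0.00975), with Ms4a1 at 0. Summed epithelial markers lay at 90.3 to 113 and 29.1 to 83.6 CPM, nearly all of it Epcam, which fell by 1.25 ± 0.29 (edgeR adjusted p = 0.0133), with Krt5 at 0. Early progenitor markers summed to 34.9 to 80.2 and 5.51 to 26.8 CPM, and Kit fell by 2.31 ± 0.48. Fibroblast and endothelial markers summed to 88.8 to 111 and 45.5 to 66.5 CPM, and Pecam1 fell by 0.82 ± 0.17, with Pdgfra at 0. NK cell markers summed to 1224 to 1705 and 1852 to 2515 CPM. Of these, Gzma rose by 0.64 ± 0.16 and Nkg7 fell by 2.93 ± 0.68, with Ncr1 at 0.235 CPM or less. Macrophage markers summed to 17.998 to 36.5 and 1.87 to 13.5 CPM, and Lyz2 fell by 2.65 ± 0.53, with Adgre1 at 0.104 CPM or less in all 18 libraries. Dendritic cell markers summed to 13.1 to 29.7 and 2.52 to 10.3 CPM, and H2-Ab1 fell by 1.96 ± 0.44. None of these sums overlapped between the DN3 groups, and erythroid markers, at 2.88 to 5.71 and 1.79 to 6.22 CPM, overlapped.

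In the DP groups, macrophage markers summed to 2.48 to 27.1 CPM in turnover and 16.1 to 124 CPM in autonomy. Csf1r was at most 7.73 CPM, and C1qc lay at 0 CPM in turnover and at 3.90 to 32.6 CPM in autonomy. Of the 4 macrophage markers tested in DP, all had a log2 change above 0, with a median of 3.09. By edgeR, 1 of them was called higher (25%, beside 0.861% of all genes). Dendritic cell markers summed to 5.93 to 18.5 and 7.05 to 181 CPM. All 4 of those tested had a log2 change above 0, with a median of 2.10, and 0 were called. DN3 markers summed to 2217 to 2627 CPM in DP turnover and 2729 to 3316.5 CPM in DP autonomy, without overlap. Most of this sum was Rag1, at 673 to 796 and 675 to 940 CPM, and Rag2, at 1079 to 1533 and 1499 to 1799 CPM. Both were higher in every DP library than in any DN3 library. Il2ra lay at 1.24 to 14.7 and 17.1 to 41.3 CPM. Ptcra lay at 36.6 to 48.9 and 57.0 to 128 CPM, and Dtx1 at 1.44 to 8.10 and 19.2 to 55.0 CPM. These 3 were higher in autonomy without overlap between the DP groups, whereas Rag1 and Rag2 overlapped. Of the 7 DN3 markers tested in DP, all had a log2 change above 0 and 1 was called higher (14.3%, beside 0.861% of all genes). The summed ranges of each of the other lists reported, macrophage and dendritic cell markers included, overlapped in DP. The part of these markers in the members' values was not tested.

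**Figure D5:**
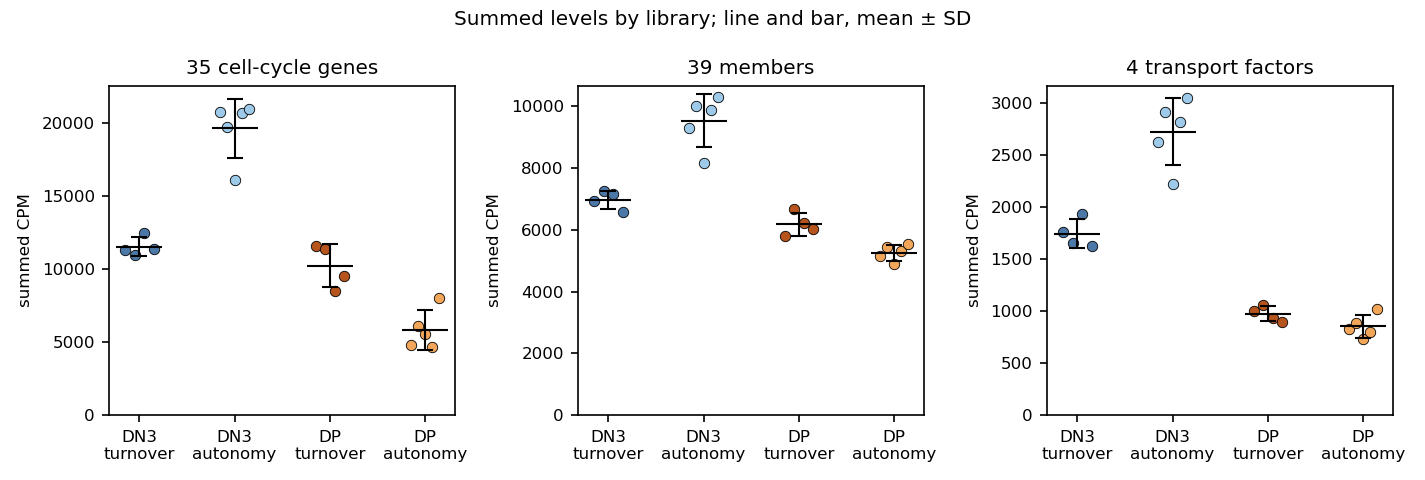
Summed CPM of 35 cell-cycle genes, of the 39 members and of the 4 transport factors in each library, with mean and SD. DN3 autonomy is the highest group in each panel. DP autonomy is below DP turnover without overlap for the cell-cycle genes and the members, while the ranges of the transport factors overlap. The sum of the members includes Tmpo and Nup205, whose lower levels in DP autonomy led to the list.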

How the data were processed

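The authors deposited raw read counts per gene for 18 libraries, and the submitters' processing notes name HISAT2, featureCounts, FastQC and DESeq2 and the builds mm10 and GRCm38. Versions, settings and strandedness are not given in the sources used. Per the labels' protocols, cells were sorted, RNA was captured on oligo-dT beads and libraries followed the Pico Nextera protocol. The authors also deposited a DESeq2 table per cell type. Per the file headers it holds log2 fold changes with standard errors, a test statistic (a score) and p-values with adjusted p-values; calls and log2 values were copied from it where named, and the score was not used.

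Members were matched by symbol through these tables and joined by Ensembl ID. The members and all lists were chosen with earlier results of these data known. Counts were fitted with edgeR 4.0.16 in R 4.3.3 (TMM scaling, filterByExpr, quasi-likelihood test, Benjamini-Hochberg adjustment over all genes tested, threshold 0.05). Autonomy was compared with turnover within each cell type, and DP with DN3 in a model of all 18 libraries with 4 group means. Scripts were tested on simulated data. No library pair agreed within sampling noise. CPM per library used TMM factors over all 18 libraries, and exon length came from the GENCODE annotation of GRCm38. SE is the log2 change divided by the root of the F statistic. Alternatives were DESeq2 1.42.0, limma voom (limma 3.58.1), RLE scaling, no filter, other sets of libraries in the fit, summed A and B libraries, a replicate block and leaving out each library.

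Full values are given for members called in DN3 or among the 8 largest log2 changes in DP. Without stated strand, Banf1 (28.6% of exon bases shared with Eif1ad), Pom121 (11.9%, Nsun5) and Lbr (9.24%, Dnah14) are uncertain, as is Emd, which shares 13.6% with a pseudogene on its own strand. One marker list is not reported here.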

Additional observations from a re-analysis of the deposited data

Results flagged for a closer look

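Among 155 sets of 4 or 5 libraries, each of a member in a group, 6 had a library past Dixon's 95% critical value, which by its construction flags about 1 in 20 sets by chance; 3 of the 6 were Nup43, through single reads. Nup153 was at 131 CPM in DN3 turnover RP1140B, and at 60.4 to 70.1 CPM in the other 3. Lemd3, which encodes an inner membrane protein that binds Smad proteins, was at 10.8 CPM in DN3 autonomy RP1134 and at 1.99 to 3.37 CPM in the others. Lmna was at 2.6 CPM in DP autonomy RP1136 and at 0 to 0.3 CPM in the others. Nup43 was at 0.0793 CPM in DN3 turnover RP1140A, 0.0997 CPM in DN3 autonomy RP1135 and 0.15 CPM in DP autonomy RP1138, with the other libraries of each group at 0.

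Lmnb1 moved in opposite directions in the cell types in every library, with a log2 change of -0.7955 in DP and 0.7956 in DN3. The difference itself was not tested, because the DP contrast led to the list.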

How the results depend on the processing

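No log2 change of a member turned its sign past the threshold under the alternatives run. In DN3, 12 members were higher and 0 lower by edgeR. RLE scaling gave 12 and 0, limma voom 13 and 0, DESeq2 13 and 1, no filter 12 and 1, 1 model of all 18 libraries 7 and 0, and summed A and B libraries 1 and 0; leaving out single libraries gave 6 to 12 higher and 0 to 1 lower. The lower call was Sun2. Counts of all genes called under each alternative are not given, here or above. The counts of members therefore cannot tell a shift of the members from a shift in all calls. The cause of the other shifts was not tested, but summing leaves 2 turnover samples. In DP, 3 members were lower by edgeR, 5 by DESeq2 and 5 by limma voom, and 2 to 4 with a library left out. For DP against DN3 in turnover, summed libraries gave 2 higher and 5 lower in place of 4 and 12, and leaving out libraries gave 2 to 5 higher and 6 to 12 lower. The low ends were reached without DN3 turnover RP1141A (2 and 7) and without DP turnover RP1141B (6 lower). In autonomy, leaving out libraries gave 1 to 3 higher, with 1 without DN3 autonomy RP1135 and without DP autonomy RP1137, and 23 to 25 lower. The median difference of the autonomy effects lay between -0.80 and -0.66 under every alternative run.

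Same-numbered DN3 and DP libraries did not deviate together (correlations from -0.034 to 0.059), so the numbers were not taken to pair them. With the replicate block, 3 members were higher and 11 lower in turnover, 2 and 24 in autonomy, and the median difference was -0.6619. The block and limma voom moved the median of all genes by up to -0.14 between stages.

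Depth limits Lmna, Lemd3 and Nup43, whose levels rest on few reads.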
